A study of Mus musculus with 6 samples.

Results

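The presynaptic fusion machinery was followed through 8 genes, Stx1a, Snap25, Vamp1, Vamp2, Cplx1, Cplx2, Syt1 and Syp, in the developing mouse hippocampus after neonatal hyperoxia. The genes were taken by symbol from a table of 24935 genes, and all 8 were present and passed the filter on low values. The rule uses no measured value, but the list was chosen with earlier results of these data known. The animals were C57BL/6 pups that stayed with nursing dams either in room air or in 85% oxygen from postnatal day 2 (P2) to P14, an exposure used as a model of the oxygen load of preterm birth. At P14 the left hippocampus was taken and its polyadenylated RNA was sequenced, with 1 library per mouse, 3 mice in room air (air-exposed) and 3 in 85% oxygen (hyperoxia-exposed). Pups of both sexes were used. The litter of each mouse is not given in the labels, and the libraries are numbered here as the deposited columns number them within a group. The exposure of each library rests on the name of its column alone. Were the names of the groups exchanged, every direction given here would reverse. The mRNA changes that the paper prints for Stx1a, Snap23 and Prox1 have the opposite sign to those found here. This conflict was not resolved, so every direction given here is uncertain. Whole tissue was sequenced, so fewer cells of a type and less RNA per cell cannot be told apart in these values.

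Neurotransmitter release at a chemical synapse depends on the SNARE complex. Syntaxin-1 and SNAP-25 on the plasma membrane pair with a synaptobrevin (VAMP) on the vesicle, and the zippering of these helices draws the membranes together until they fuse. Complexins bind the assembled helices, holding vesicles ready and aiding fast release, while synaptotagmin-1 senses the calcium that triggers fusion and synaptophysin is an abundant vesicle membrane protein that associates with synaptobrevin. In the hippocampus this machinery serves the excitatory and inhibitory terminals whose number and strength increase over the first postnatal weeks.

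Values are read counts per gene divided by a scaling factor for each library, called normalised read counts here. Differences are given on the log2(normalised read count + 1) scale as hyperoxia minus air, and p-values come from limma fitted over 17778 genes whose mean was 10 or more, adjusted by the Benjamini-Hochberg method. A gene was said to rise or fall when its adjusted p lay under 0.05. Libraries held 30384052 to 38746972 reads on genes. For 1 gene at this group size, the smallest two-sided exact permutation p is 0.1.

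Snap25, Vamp1, Vamp2, Cplx2 and Syp, 5 of the 8 genes, fell in hyperoxia-exposed mice, by 15.7% to 24.1% of the air mean. None rose in this limma fit, although Stx1a and Syt1 had higher means in hyperoxia. Their unadjusted limma p-values were 0.019 each and their adjusted p-values lay just over the threshold. Both passed in edgeR and in DESeq2, and each passed in some limma alternatives. For Stx1a these were the length and GC correction and the omission of hyperoxia library 3. For Syt1 they were a filter at a mean of 50, quantile normalisation and the omission of hyperoxia library 2. Under quantile normalisation in limma Syt1 rose (0.43, adjusted p = 0.0085), Vamp1 remained called at −0.29, and the differences of Snap25, Vamp2, Syp and Cplx2 shrank to between −0.15 and −0.04 and were no longer called. Cplx1 passed neither in the limma fit first described, with an adjusted p of 0.41, nor under quantile normalisation, with 0.82 in limma. Over all genes tested, 30.5% were called in either direction, 15.6% lower and 14.9% higher. The highly expressed genes leaned further down: of the 533 genes whose mean was 10000 or more, 46.5% were called, 33.4% lower and 13.1% higher, and 4 of the 6 members in that range fell. In 6 of the 8 members the air and hyperoxia libraries did not overlap, against 46.1% of all genes tested. The median difference of the 8 members was −0.27, beside −0.01 for all genes tested and −0.10 for those whose mean was 10000 or more.

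**Figure D1:**
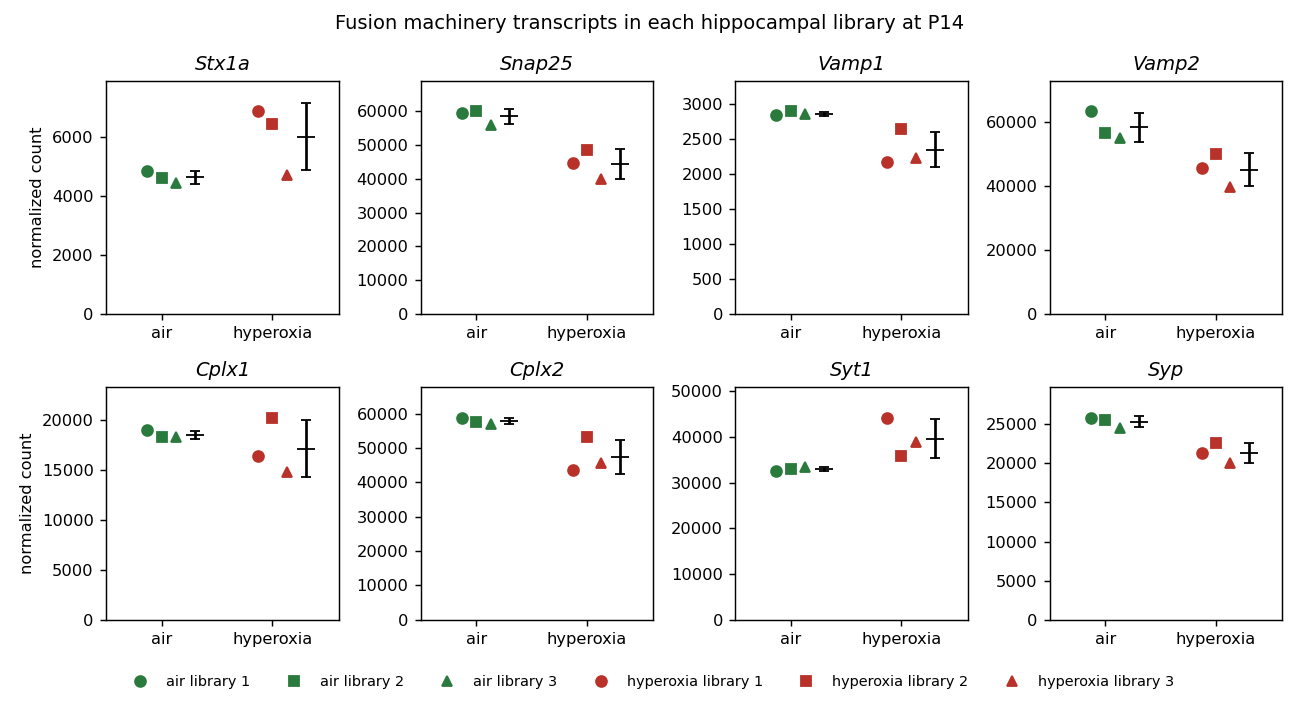
Normalised read count of each of the 8 genes in every library, with air-exposed and hyperoxia-exposed mice side by side, points for single mice and bars for the mean and SD of 3. The hyperoxia points of Snap25, Vamp1, Vamp2, Cplx2 and Syp lie under all air points, those of Syt1 lie over them, and those of Stx1a and Cplx1 overlap with air.

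Of the plasma membrane SNAREs, Snap25 fell and Stx1a did not pass the test. Stx1a (syntaxin-1A, ENSMUSG00000007207.10, plus strand of chromosome 5, 135023482 to 135051100 of GRCm38) counted 4854, 4596 and 4419.7 across air libraries 1 to 3 against 6865, 6436 and 4710.2 across hyperoxia libraries 1 to 3. Hyperoxia libraries 1 and 2 lay above all air libraries, while hyperoxia library 3 lay within the air range. The means were 4623 ± 218 (SD, n = 3) in air-exposed mice and 6004 ± 1141 (SD, n = 3) in hyperoxia-exposed mice, a difference of 0.36 (standard error 0.13, limma adjusted p = 0.058) with a 95% interval of 0.07 to 0.64, so Stx1a missed the threshold. Without hyperoxia library 3 it was 0.53 with an adjusted p of 0.0012, and on recovered reads the adjusted p was 0.049 in edgeR and 0.015 in DESeq2, within a range of 0.0012 to 0.20 over 17 alternatives.

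Snap25 (SNAP-25, ENSMUSG00000027273.13, plus strand of chromosome 2, 136713453 to 136782428) contributes a pair of helices to the complex. It counted 59600.5, 60018 and 55901 across air libraries 1 to 3 against 44635, 48629.5 and 39959.6 across hyperoxia libraries 1 to 3. Every hyperoxia library lay under every air library. The means were 58506 ± 2266 (SD, n = 3) in air-exposed mice and 44408 ± 4339 (SD, n = 3) in hyperoxia-exposed mice, a fall of 24.1%. The difference was −0.40 (standard error 0.09, limma adjusted p = 0.011), the largest fall of the 8 in this fit. The direction held under all 17 alternatives, with adjusted p-values of 2.9e-04 to 0.20, and the call was lost under quantile normalisation (−0.15, adjusted p = 0.20) and with air library 1 omitted (0.053) or air library 2 (0.061) in limma.

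Both vesicle SNAREs fell. Vamp2 (synaptobrevin-2, ENSMUSG00000020894.16, plus strand of chromosome 11, 69088490 to 69092384) is the main vesicle SNARE of forebrain synapses. It counted 63416, 56717 and 54989 across air libraries 1 to 3 against 45630.0, 50050.4 and 39844 across hyperoxia libraries 1 to 3. The groups did not overlap, and the lowest air library exceeded the highest hyperoxia library, number 2. The means were 58374 ± 4451 (SD, n = 3) in air-exposed mice and 45175 ± 5119 (SD, n = 3) in hyperoxia-exposed mice, a fall of 22.6% and a difference of −0.37 (standard error 0.10, limma adjusted p = 0.025). Leaving out any one of air libraries 1, 2 and 3 or hyperoxia libraries 1 and 3 ended the call, with adjusted p-values in limma of 0.11, 0.076, 0.053, 0.069 and 0.052 and differences of −0.45 to −0.29 over the 6 omissions. It was also lost under quantile normalisation, at −0.10 with an adjusted p of 0.47, and in limma without the trend, at an adjusted p of 0.060.

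Vamp1 (synaptobrevin-1, ENSMUSG00000030337.16, plus strand of chromosome 6, 125215551 to 125245964) serves the same step and is known best from spinal cord and brainstem. It counted 2843, 2901 and 2857 across air libraries 1 to 3 against 2179.8, 2641 and 2229.6 across hyperoxia libraries 1 to 3. The air libraries were close together and all lay above the hyperoxia libraries, of which library 2 was nearest to them. The means were 2867 ± 30.3 (SD, n = 3) in air-exposed mice and 2350.3 ± 253 (SD, n = 3) in hyperoxia-exposed mice, a fall of 18.0% and a difference of −0.29 (standard error 0.08, limma adjusted p = 0.027). The call was lost on omitting air library 1, 2 or 3 or hyperoxia library 1 or 3, with adjusted p-values in limma of 0.087, 0.10, 0.082, 0.11 and 0.059 at differences of −0.30 to −0.24, and without the trend (0.074).

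The complexins differed in whether they passed the test. Cplx2 (complexin-2, ENSMUSG00000025867.8, plus strand of chromosome 13, 54371349 to 54383917) counted 58869, 57572 and 57009.6 across air libraries 1 to 3 against 43647, 53068 and 45655 across hyperoxia libraries 1 to 3. The air libraries spanned a narrow range above all hyperoxia libraries. The means were 57817 ± 953 (SD, n = 3) in air-exposed mice and 47457 ± 4962 (SD, n = 3) in hyperoxia-exposed mice, a fall of 17.9% and a difference of −0.29 (standard error 0.09, limma adjusted p = 0.042). This call was the least stable of the 5, since it held under 8 of 17 alternatives with adjusted p-values of 0.0012 to 0.73. It was lost when air library 1, 2 or 3 was omitted (0.13, 0.13 and 0.11) and when hyperoxia library 1 or 3 was (0.16 and 0.078), all in limma at differences of −0.30 to −0.23, and quantile normalisation gave −0.04 with an adjusted p of 0.73.

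Cplx1 (complexin-1, ENSMUSG00000033615.9, minus strand of chromosome 5, 108518554 to 108550024) counted 18998, 18303 and 18329 across air libraries 1 to 3 against 16445, 20274 and 14772 across hyperoxia libraries 1 to 3. Hyperoxia libraries 1 and 3 lay under the air range and library 2 lay above it. The means were 18543 ± 394 (SD, n = 3) in air-exposed mice and 17163 ± 2820.4 (SD, n = 3) in hyperoxia-exposed mice, a difference of −0.12 (standard error 0.11, limma adjusted p = 0.41) with a 95% interval of −0.37 to 0.12, which holds both no change and a fall as large as that of Cplx2. Without hyperoxia library 2 the difference was −0.25 with an adjusted p of 0.010, the only one of 17 alternatives under which Cplx1 was called, in a range of 0.010 to 0.92. Without hyperoxia library 3 it was −0.02 with an adjusted p of 0.89 in limma.

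Syt1 (synaptotagmin-1, ENSMUSG00000035864.14, minus strand of chromosome 10, 108497650 to 109010982), the calcium sensor of fast release, lay on the other side of air from the vesicle SNAREs. It counted 32501, 33025 and 33484 across air libraries 1 to 3 against 44278, 35766 and 38978 across hyperoxia libraries 1 to 3. All 3 hyperoxia libraries exceeded all air libraries, with library 2 the lowest of them. The means were 33003 ± 492 (SD, n = 3) in air-exposed mice and 39674 ± 4298 (SD, n = 3) in hyperoxia-exposed mice, a difference of 0.26 (standard error 0.09, limma adjusted p = 0.058) with a 95% interval of 0.05 to 0.47 that lies above 0 before adjustment. Syt1 therefore missed the threshold by little, and the adjusted p was 0.045 in edgeR, 0.015 in DESeq2 and 0.0037 in limma without hyperoxia library 2, within a range of 0.0037 to 0.21 over the alternatives. With the length and GC correction the difference was 0.14 with an adjusted p of 0.16 in limma.

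Syp (synaptophysin, ENSMUSG00000031144.15, plus strand of chromosome X, 7638471 to 7653256), widely used as a marker of presynaptic terminals, fell. It counted 25843, 25547 and 24516 across air libraries 1 to 3 against 21310.5, 22581 and 20083 across hyperoxia libraries 1 to 3. The groups did not overlap. The means were 25302 ± 697 (SD, n = 3) in air-exposed mice and 21325 ± 1249 (SD, n = 3) in hyperoxia-exposed mice, a fall of 15.7% and a difference of −0.25 (standard error 0.08, limma adjusted p = 0.034). Omitting air library 1, 2 or 3 ended the call (0.12, 0.13 and 0.081), as did omitting hyperoxia library 1 or 3 (0.097 and 0.076), all in limma at differences of −0.27 to −0.21. Quantile normalisation ended it as well (adjusted p = 0.24). An antisense gene, Gm14703, shares 875 exon bases with Syp on the other strand at a mean normalised read count of 59.7, which is small beside the count of Syp. No source used here gives the strand setting of the counting, so reads in the shared bases cannot be assigned to either gene with certainty.

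**Figure D2:**
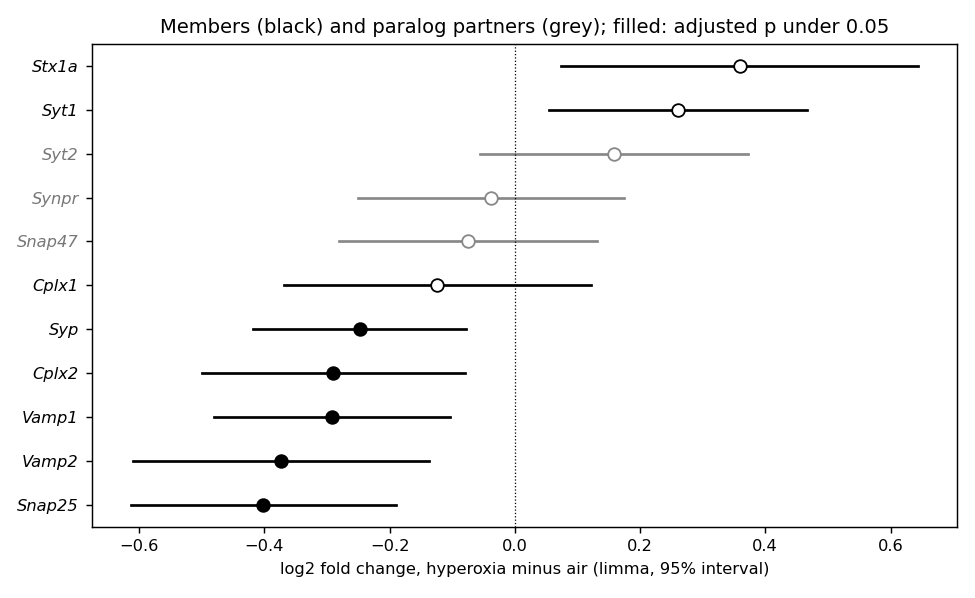
Difference between hyperoxia-exposed and air-exposed mice for each of the 8 genes on the log2(normalised read count + 1) scale, as the limma estimate with its 95% interval from 3 mice a group, members in black, Snap47, Syt2 and Synpr in grey, and filled points for an adjusted p under 0.05. The intervals of Snap25, Vamp2, Vamp1, Cplx2 and Syp lie under 0, that of Cplx1 (−0.37 to 0.12) includes 0, and those of Syt1 and Stx1a lie above 0 although neither passed the adjusted threshold.

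Hyperoxia library 2 was the hyperoxia library nearest to the air mean for 7 of the 8 genes, all but Stx1a. This library also stood apart from the rest over all genes, with a score of 38.7 on a second principal component (19.5% of the variance) where the other libraries lay between −22.6 and 5.46. Without it, 7 of the 8 members were called, all but Stx1a (adjusted p = 0.074 in limma), and 7771 genes over the whole table. In 1 library of each group, air library 3 and hyperoxia library 1, the female-specific transcript Xist was high and Y-linked transcripts were near 0, and with this pattern as a covariate Snap25, Vamp1 and Vamp2 had an adjusted p under 0.05 in limma (0.022, 0.039 and 0.041), while Cplx2 and Syp did not (0.058 and 0.057).

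**Figure D3:**
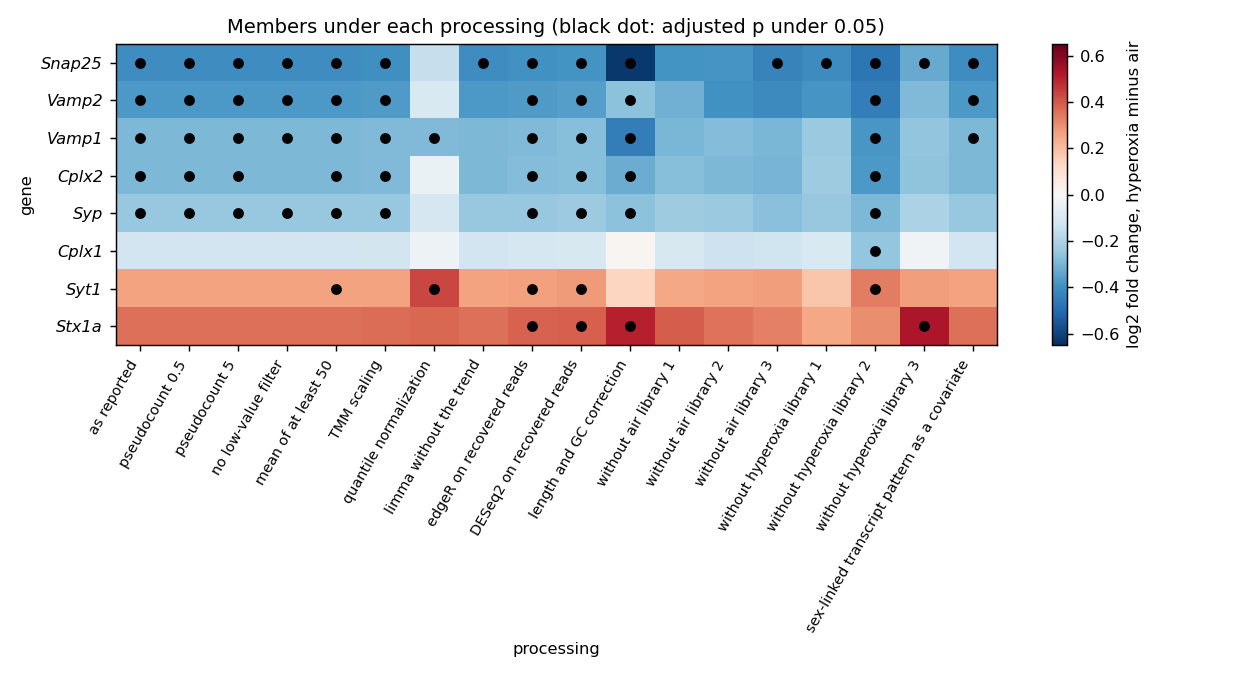
Log2 difference between hyperoxia and air for each gene as reported and under each alternative treatment of the values, as colour (red higher, blue lower in hyperoxia), with a black dot where the adjusted p lay under 0.05. The members called ranged from 0 without air library 1 or 2 to 7 in edgeR, in DESeq2 and without hyperoxia library 2.

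Levels of different genes were compared per kilobase of exon, over the union of all annotated exons of a gene. This length exceeds the longest transcript for Snap25 (6791 against 4880 bases), Syp (5211 against 2843) and Vamp1 (10167 against 5709), among others. It equals the longest transcript for Cplx1 and Cplx2. The order below holds for this length only, and an order by the longest transcript was not computed. Vamp2 was the most abundant of the 8 in air at 15325 ± 1169 normalised read counts per kb (SD, n = 3). Cplx2 followed at 11732 ± 194. Snap25 at 8615 ± 334 and Cplx1 at 8471 ± 179.9 came next and were the only neighbours in the order whose libraries overlapped. Syp (4856 ± 134), Syt1 (3958 ± 59.0) and Stx1a (1734 ± 81.9) followed. Vamp1 was far lower at 282 ± 2.98, near the 70.0 percentile of the genes tested, where the other 7 all lay above the 95th.

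In hyperoxia the order by this exon length changed at 2 places: Cplx1 stood before Snap25 and Syt1 before Syp. Their levels were 7841 ± 1288 and 6539 ± 639 per kb, and 4758 ± 516 and 4092 ± 239.7 per kb (SD, n = 3). In both pairs the libraries overlapped, as did those of Vamp2 (11860.0 ± 1344) with Cplx2 and of Cplx2 (9630.0 ± 1007) with Cplx1. The summed normalised count of the 8 genes was 251505 to 266925 in air and 206231 to 239445 in hyperoxia, which was 0.700% to 0.732% of all gene values in air libraries and 0.610% to 0.696% in hyperoxia libraries, with no overlap.

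Members were also set against relatives of their own family, since the ratio of 2 genes within a library does not depend on the scaling of that library. The coding sequences of each pair were compared, because reads from a stretch shared by both could be assigned to either. The longest identical run was short in each pair, and 3 are shown:
Vamp1 and Vamp2: gaggtggtggacatcatg
Cplx1 and Cplx2: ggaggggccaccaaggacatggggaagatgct
Syp and Synpr: gaattctttgtcaccgtggctgtgtt
These runs are 18, 32 and 26 bases long, and those of Snap25 with Snap47 and Syt1 with Syt2 are 10 and 26 bases long.

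The log2 ratio of Snap25 to Snap47, a SNARE relative found on several membranes, was 2.45, 2.44 and 2.45 across air libraries 1 to 3 against 2.12, 2.09 and 2.15 across hyperoxia libraries 1 to 3. The groups did not overlap, with a difference of −0.33 (standard error 0.02, exact permutation p = 0.1, the smallest possible, 0.2 adjusted over 6 pairs), and Snap47 differed by −0.07 (limma adjusted p = 0.57). It shares 307 exon bases with Jmjd4 on the other strand.

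The log2 ratio of Cplx1 to Cplx2 was −1.63, −1.65 and −1.64 across air libraries 1 to 3 against −1.41, −1.39 and −1.63 across hyperoxia libraries 1 to 3. The hyperoxia libraries all lay above the air libraries, library 3 by little, and the difference was 0.17 (standard error 0.08, exact permutation p = 0.1, 0.2 adjusted). Vamp1 and Vamp2 fell side by side, and their log2 ratio differed by 0.08 (standard error 0.10, exact permutation p = 0.4) with overlapping groups. The ratios of Syt1 to Syt2 (0.10, exact permutation p = 0.2) and of Syp to Synpr, the synaptophysin relative synaptoporin (−0.21, exact permutation p = 0.2), overlapped between groups as well. Syt2 and Synpr themselves differed by 0.16 (limma adjusted p = 0.23) and −0.04 (limma adjusted p = 0.78).

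**Figure D4:**
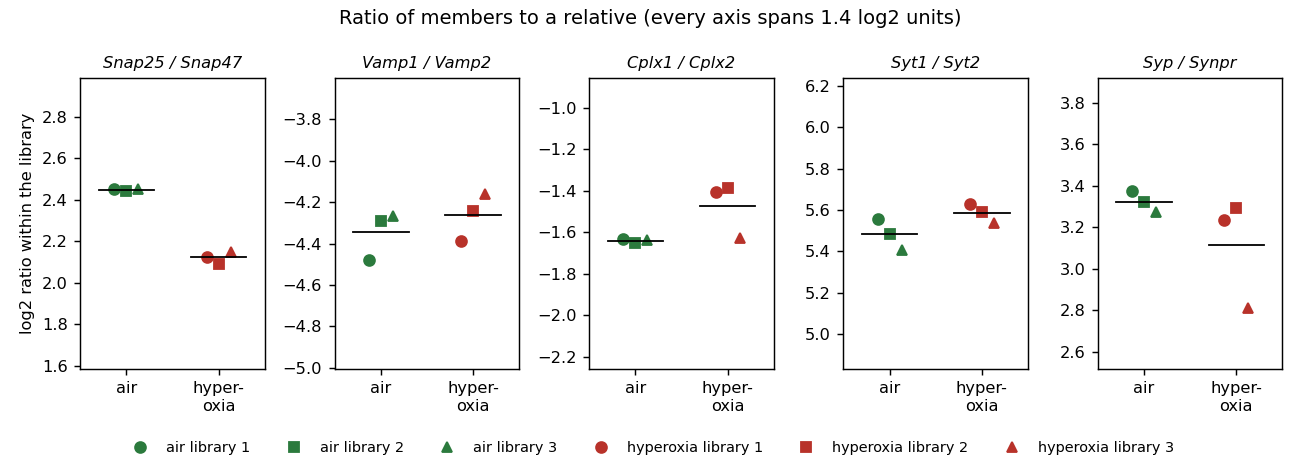
Log2 ratio of 5 pairs of related genes in every library, air beside hyperoxia, with the mean of 3 as a bar. The groups are apart for Snap25 to Snap47 (difference −0.33) and Cplx1 to Cplx2 (0.17) and overlap for the other pairs.

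Promoters are shown for Syp and Vamp1, which fell, and for Stx1a and Syt1, whose means were higher, so that the sequence upstream of genes on either side can be set side by side. The RefSeq table for GRCm38.p6 held a promoter for 6 of the 8 genes, with 2 start sites for Syt1, and Snap25 and Vamp2 were not matched. Each runs 5′ to 3′ over 300 bases around the start site, most of them before it, and capitals mark GC boxes (GGGCGG) and CCAAT boxes (CCAAT) on either strand:
Syp, chrX:7638330-7638629, plus strand: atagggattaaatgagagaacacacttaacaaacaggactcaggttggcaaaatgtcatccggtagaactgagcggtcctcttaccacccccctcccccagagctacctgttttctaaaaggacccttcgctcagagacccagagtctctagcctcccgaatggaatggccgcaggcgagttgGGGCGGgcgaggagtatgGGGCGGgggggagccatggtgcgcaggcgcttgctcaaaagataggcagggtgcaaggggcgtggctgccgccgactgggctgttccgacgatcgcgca
Vamp1, chr6:125215331-125215630, plus strand: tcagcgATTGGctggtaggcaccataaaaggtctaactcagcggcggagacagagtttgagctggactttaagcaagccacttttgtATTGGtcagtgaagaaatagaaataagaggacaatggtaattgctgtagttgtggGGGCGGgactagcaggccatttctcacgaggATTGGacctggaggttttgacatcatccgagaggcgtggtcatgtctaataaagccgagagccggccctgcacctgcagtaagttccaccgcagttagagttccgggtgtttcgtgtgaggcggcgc
Stx1a, chr5:135023232-135023531, plus strand: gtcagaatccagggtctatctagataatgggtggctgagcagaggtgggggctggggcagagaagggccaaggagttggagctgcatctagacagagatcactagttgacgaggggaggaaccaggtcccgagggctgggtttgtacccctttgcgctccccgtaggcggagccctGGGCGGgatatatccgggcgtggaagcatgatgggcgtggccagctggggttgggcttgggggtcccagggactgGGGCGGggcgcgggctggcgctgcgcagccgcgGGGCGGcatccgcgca
Syt1, chr10:109010926-109011225, minus strand: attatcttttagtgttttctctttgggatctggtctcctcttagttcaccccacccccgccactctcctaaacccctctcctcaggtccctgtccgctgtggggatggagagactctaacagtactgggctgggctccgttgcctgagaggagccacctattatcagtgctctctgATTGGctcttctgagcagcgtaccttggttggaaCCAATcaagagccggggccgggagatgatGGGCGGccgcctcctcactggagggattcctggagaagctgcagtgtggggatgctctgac
The GC box was found 2 times in Syp, 1 time in Vamp1, 3 times in Stx1a and 1 time in the Syt1 promoter shown, 2 times in Cplx1, and not in Cplx2 or the other Syt1 promoter, and 35.6% of all 32817 promoters hold at least 1. CCAAT occurred 3 times in Vamp1 and 2 times in the Syt1 promoter shown and in none of the others, where 37.4% of all promoters hold it. The CRE (TGACGTCA, in 1.79% of promoters) and TATAAA (in 13.6%) were in none of the 7 windows. GC content was 59.0% for Syp, 51.7% for Vamp1, 66.3% for Stx1a and 56.7% for Syt1, beside a median of 52.7% over all promoters, and neither motif separated the genes that fell from the others. The Cplx2 window starts at 54302306 on chromosome 13, far before the gene start given above (54371349). It may therefore not belong to the start site used in this tissue. A match is a description of the letters only.

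The wider vesicle cycle was read through 82 further genes in 6 lists. Of the 81 tested, 21 rose and 13 fell, 42.0% in all, with a median difference of 0.04. The share called was 30.5% over all genes and 46.5% over those whose mean was 10000 or more. The lists were not matched to other genes by level. Cplx4 was not tested for its low counts.

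Among other SNAREs, 2 of 9 passed the test. Vamp3, the widely expressed synaptobrevin relative cellubrevin, rose (0.51, limma adjusted p = 0.014) and Stx4a, a syntaxin of constitutive exocytosis, fell (−0.29, limma adjusted p = 0.034). The list had a median of −0.08.

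Of the 13 genes for SNARE assembly, priming and disassembly, 5 rose and 2 fell, with a median of 0.26. Unc13c, a Munc13 priming factor, rose from 557 ± 90.0 to 1391 ± 184 (SD, n = 3 each), a difference of 1.32 (limma adjusted p = 3.9e-04), and Stxbp5l, a tomosyn that binds syntaxin, rose by 1.26 (limma adjusted p = 0.021). The 2 that fell were Stxbp6 (amisyn, −0.48, limma adjusted p = 0.0047) and Nsf, the ATPase that takes spent SNARE complexes apart. Nsf went from 35729.5 ± 401 to 29205 ± 1233 (SD, n = 3 each), a difference of −0.29 (limma adjusted p = 0.016).

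Among the remaining complexins, synaptotagmins and Doc2 sensors, 5 of 16 tested rose and 3 fell, with a median of 0.08. Cplx3, a complexin best known from retina, rose from 120.4 to 376 (means of 3, 1.62, limma adjusted p = 0.0011), the largest rise in the list, and Syt9, another fast calcium sensor, rose by 0.81 (limma adjusted p = 0.019). Doc2b, a sensor linked to spontaneous release, fell (−0.63, limma adjusted p = 9.8e-04), as did Syt17 (−0.49, limma adjusted p = 0.014).

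Genes of the vesicle membrane and its tethering divided evenly, with 3 of 17 higher and 3 lower and a median of 0.11. Rab3b, a vesicle GTPase (0.63, limma adjusted p = 0.012), and Sv2c, a vesicle glycoprotein (0.52, limma adjusted p = 0.0088), rose. Syn1 (synapsin-1, which ties vesicles to actin) fell from 46671 to 33437 (−0.48, limma adjusted p = 0.0043), and Rab3a, the main vesicle Rab of forebrain terminals, fell by 0.44 on the log2 scale (limma adjusted p = 0.021).

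Of 12 active zone scaffold genes, 4 rose and 1 fell, with a median of 0.30. Rims3 (1.01, limma adjusted p = 7.7e-04) and Rims2 (0.59, limma adjusted p = 0.0016), members of the RIM family of active zone proteins, rose. Rimbp2, a RIM-binding protein, fell (−0.47, limma adjusted p = 0.012). Of 14 endocytosis genes, 3 rose and 3 fell, with a median of 0.03. Clathrin heavy chain, Cltc (0.50, limma adjusted p = 0.0029), and the dynamin Dnm3 (0.44, limma adjusted p = 0.0053) rose, and the neuronal dynamin Dnm1 fell from 63252 to 43351 (−0.55, limma adjusted p = 0.0016) with Bin1 (amphiphysin-2, −0.33, limma adjusted p = 0.0065).

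Of the 21 genes named from the 6 lists, 11 were called under all 17 alternatives: Unc13c, Stxbp6, Cplx3, Doc2b, Syn1, Rims3, Rims2, Cltc, Dnm3, Dnm1 and Bin1. Sv2c lost its call with the length and GC correction only (0.26, adjusted p = 0.078 in limma), and Stx4a lost its call under it as well (−0.13, adjusted p = 0.28). For the other 9 the highest limma adjusted p on omitting 1 library was 0.13 (without hyperoxia library 1) for Stx4a, 0.069 (without air library 1) for Vamp3, 0.080 (without air library 1) for Stxbp5l, 0.079 (without air library 2) for Nsf, 0.073 (without air library 2) for Syt9, 0.061 (without hyperoxia library 1) for Syt17, 0.098 (without air library 1) for Rab3a, 0.052 (without air library 3) for Rab3b and 0.059 (without air library 1) for Rimbp2. Under quantile normalisation Nsf was −0.09 with an adjusted p of 0.31 in limma, and Rab3a was −0.315 with 0.068. In limma without the trend Vamp3, Stx4a, Stxbp5l, Syt9, Syt17, Rab3a and Rab3b lost their calls, at adjusted p-values of 0.053 to 0.077.

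**Figure D5:**
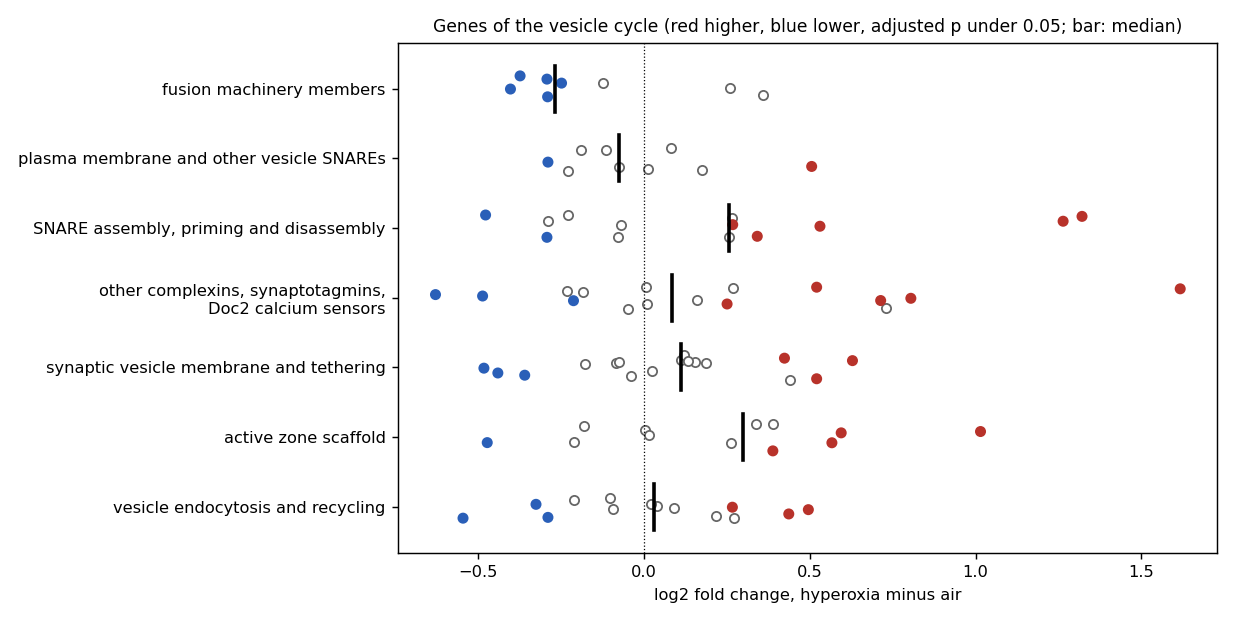
Log2 difference between hyperoxia and air for every tested gene of the fusion machinery and the 6 related lists, filled red (higher) or blue (lower) where the adjusted p lay under 0.05, with the median of each list as a bar. The fusion machinery has the lowest median (−0.27), and the active zone scaffold (0.30) and SNARE assembly (0.26) have the highest. The lists were not matched by level, and 6 of the 8 fusion machinery genes had a mean of 10000 or more.

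Markers of the cells and regions a dissected hippocampus can hold were read beside these results. The counts called in these short lists stand beside 30.5% of all genes tested, 14.9% higher and 15.6% lower. All 8 hippocampal neuron markers were present, with summed normalised counts of 49076 to 52682 in air and 31058 to 46895 in hyperoxia, and 4 of them fell, the lowest sum being that of hyperoxia library 2. The thalamus list summed to 8229 to 8843 in air and 10973 to 15054 in hyperoxia, and was highest in hyperoxia library 2. In it 6 of 10 genes were higher, led by Slc17a6 (1.72, limma adjusted p = 1.2e-04). The rest were not called, among them Calb2 (0.09, limma adjusted p = 0.81) and Prkcd, whose mean was lower (−0.21, limma adjusted p = 0.37). Neocortex markers summed to 7698 to 8593 in air and 8488 to 11579.9 in hyperoxia, with 3 of 6 higher. These were Foxp2 (1.935, limma adjusted p = 5.9e-04), Cux2 (0.98, limma adjusted p = 9.2e-04) and Rorb (0.50, limma adjusted p = 0.0054). Lamp5 (0.44, limma adjusted p = 0.11), Tbr1 (−0.008, limma adjusted p = 0.97) and Fezf2 (−0.21, limma adjusted p = 0.16) were not called.

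Neuronal genes outside the synapse moved both ways: the list summed to 141804 to 147906 in air and 152995 to 163649.8 in hyperoxia, with 4 of 10 higher, including Map2 (0.49, limma adjusted p = 0.0037), and 2 lower, Rbfox3 (−0.46, limma adjusted p = 0.0027) and Eno2 (−0.31, limma adjusted p = 0.017). GABAergic interneuron markers summed to 22633 to 26101 in air and 20815 to 27594 in hyperoxia, and 1 of 7 rose (Vip) and 1 fell (Pvalb, −0.88, limma adjusted p = 0.0021). The myelin genes of oligodendrocytes fell in 5 of 6 cases, with sums of 211426 to 321844 in air and 144727 to 177382 in hyperoxia.

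Astrocyte markers summed to 87786 to 90477 in air and 80843 to 92607 in hyperoxia (2 of 5 higher, 1 lower), microglial markers to 9600.2 to 9638 in air and 9911 to 11076 in hyperoxia (1 of 5 higher) and endothelial markers to 5178 to 5618 in air and 5879 to 6783 in hyperoxia (1 of 4 higher, 1 lower). Choroid plexus markers summed to 524 to 1391 in air and 450.5 to 8055 in hyperoxia, the highest value being that of hyperoxia library 3, and the lowest limma adjusted p of the 4 tested was 0.23 (Kl, −0.30). No marker in these lists was at 0 in any library. These marker differences accompany the changes of the 8 fusion genes, and their part in the results was not tested.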

How the data were processed

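RNA was taken from the left hippocampus of 6 mice, and strand-specific libraries from polyadenylated RNA (Agilent SureSelect) were sequenced as paired ends on a NextSeq instrument. The deposited values, a signal per gene, are read counts that the authors divided by a DESeq2 size factor for each library. The submitters' processing notes name FastQC, STAR 2.5.3a, HTSeq and DESeq2. No source used here gives the genome build, the annotation or the strand setting. A second deposited table holds the authors' own fold changes and p-values and was not used.

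Low values were whole multiples of 1 read in every library (100% of values within 0.01 of a whole read), so reads were recovered, with 30384052 to 38746972 on genes per library. Columns name the group but not the animal, so every direction follows the group named in the column. Set beside the mRNA changes that the paper prints, Stx1a, Snap23 and Prox1 had the opposite sign here, while Tbr1 hardly changed in either. Whether the column names or the printed signs are exchanged was not settled. Genes with a mean of at least 10 (17778 of 24935) were tested on log2(value + 1) with limma 3.58.1 with a mean-variance trend, two-sided, with Benjamini-Hochberg adjustment over all of them and a threshold of 0.05. Nothing says which pups shared a litter, so p-values measure the spread between these mice. Paralog ratios were compared by exact permutation over all 20 splits, and 1 of the 6 pairs is not reported here. Alternatives were edgeR 4.0.16 and DESeq2 1.42.0 on the recovered reads, other scalings, pseudocounts and filters, a length and GC correction, no trend, and leaving out each library. The code was tested on simulated data.

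The members, the related lists and the marker lists were chosen with earlier results of these data known. Named genes were all members, their paralogs, in each list the 2 called genes that rose most and the 2 that fell most, the 2 genes with the nearest profile to each member, and marker genes beside a result. Positions and exon lengths are from GENCODE M21 (GRCm38), to which 99.7% of the gene identifiers matched, and promoters from RefSeq (GRCm38.p6).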

Additional observations from a re-analysis of the deposited data

How the results depend on the processing

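The 5 members called became 2 under quantile normalisation (Vamp1, still lower, and Syt1, higher at 0.43 with a limma adjusted p of 0.0085), 1 in limma without the trend and 3 with the sex-linked transcript pattern as a covariate (chosen after seeing the data), and 0 to 7 over the 6 single-library omissions (0 without air library 1 or air library 2, where 6 and 5 members had an unadjusted limma p under 0.05). They numbered 7 in edgeR and in DESeq2. In all, 5425 genes were called over the whole table, and 3056 to 7771 without 1 library. Quantile normalisation gave 5374, limma without the trend 4224, the sex-linked covariate 4831, edgeR 5501 and DESeq2 5611. Without the trend the calls went from 2 to 0 among other SNAREs, from 7 to 4 in SNARE assembly and from 8 to 4 among other complexins and synaptotagmins, and the sex-linked covariate left 1 of the other SNAREs. The active zone list went from 5 to 8 calls in DESeq2 and with the length and GC correction. Omitting single libraries gave 0 to 3 calls among other SNAREs, 2 to 10 in SNARE assembly, 4 to 12 among other complexins and synaptotagmins, 5 to 8 in the vesicle membrane list, 3 to 8 in the active zone list and 4 to 10 in endocytosis. Signs reversed for the differences of Cplx1 (0.011) and Snap47 (0.043) with the length and GC correction, for Snap47 over the omissions (−0.158 to 0.013, above 0 without hyperoxia library 3), for Synpr over them (−0.147 to 0.023, above 0 without hyperoxia library 1 or 2), and for the Vamp1 to Vamp2 ratio (−0.18, exact permutation p = 0.3) with the length and GC correction. The cause was not tested. No paired analysis was possible because the deposited column numbers are not the animals' numbers and the labels give the groups no shared replicate number. Depth was not varied, so its share in the width of the intervals was not tested.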

Other observations

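Ratios between members on either side of air were also read within each library, where the scaling has no part. They were chosen after the values were seen and carry no test. The ratios of Syt1 could not overlap between groups, because Syt1 lay wholly above air and Snap25, Vamp2 and Syp wholly under it. Those of Stx1a, which itself overlapped with air, did not overlap either. The log2 ratio of Syt1 to Snap25 averaged −0.83 in air libraries and −0.16 in hyperoxia libraries, a difference of 0.66, and those of Syt1 to Vamp2 and to Syp differed by 0.63 and 0.51. Stx1a differed from Snap25 by 0.76 and from Vamp2 by 0.73 on the same scale. By contrast the ratio of Snap25 to Vamp2 differed by −0.03 with overlapping groups.

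Likeness of profile was measured as the root mean square difference in log2 value over the 6 libraries, each gene centred on its own mean. Among the members the closest pair was Vamp1 and Cplx2 (0.0217) and the farthest was Stx1a and Snap25 (0.397), with Snap25 and Vamp2 at 0.054. Over all genes tested, the nearest to Syp were Terf2 (0.0108) and Mrpl58 (0.0116), to Cplx1 Slc35a4 (0.0154) and Atp5d (0.0229), to Vamp1 Tssc4 (0.0167) and Nsmf (0.0174), and to Cplx2 Pdcd5 (0.0173) and Coro1b (0.0205). Those nearest to Syt1 were Depdc5 (0.0205) and Ttpal (0.0209), to Vamp2 Ckmt1 (0.0211) and Med15 (0.0234), to Snap25 Smap2 (0.0237) and Gm11642 (0.0251), and to Stx1a Lrrc55 (0.04) and Gjb2 (0.054).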
